A study of Mus musculus with 2 samples.

Results

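The regions described here are strong DNase I hypersensitive peaks in which no footprint was called in either library of mouse thymus. They were chosen from the shorter of the 2 deposited peak lists of each library, on autosomes, by 3 deposited readouts. The signal had to be above the median of that library's whole list, the peak had to overlap no footprint of its own library, and it had to overlap a peak of the other library that held none there either. Of 24671 strong autosomal peaks in replicate 1, 156 met the rule (0.632%), and of 24331 in replicate 2, 203 met it (0.834%). Merged over both libraries they made 250 loci on 19 autosomes. Signal, footprint absence and the overlap between libraries fixed the membership, so they are given below as description only, with no test.

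DNase-seq was run on thymus, the organ where T cells mature, from female B6CASTF1/J mice, hybrids of the B6 and CAST strains, at 18 to 20 months of age. The series holds 1 group of 2 libraries, which share a donor record and have separate biosample records. The labels do not say that separate animals were used, which means their spread could be technical, and no younger, male or other-tissue group was compared. With 1 group of 2 libraries no test between groups was possible. Values are given per library, and differences are set against the spread between the libraries.

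DNase I cuts DNA where it is not wrapped around nucleosomes, so cuts pile up at promoters and enhancers as a hypersensitive peak. A protein bound tightly within such a peak can shield its own bases and leave a short run with few cuts, the footprint. Some regulatory proteins stay on DNA only briefly and leave little or no footprint, and open chromatin can also extend around a promoter's nucleosome-free core without a stably bound factor.

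Shown first are 4 members, taken by their mean signal rank over both libraries from those of at most 300 bp outside untranslated parts of transcripts, with footprinted peaks of the same signal in replicate 1, so that the composition of both kinds can be read directly. They are from the GRCm38 (mm10) forward strand, in lower case, with the bases inside replicate 1 footprints in capitals. The 4 members have no capitals because no footprint was called in them. The first lies at chr11:60235441-60235650 in an intron of Tom1l2, and the nearest protein-coding start, that of Srebf1, is 14942 bp away. The Ska2 peak, chr11:87109341-87109600, lies in Ska2 with its centre 237 bp downstream of the start site. The Hnrnpul1 peak, chr7:25755521-25755780, is centred 894 bp upstream of its start. The Atp11b peak, chr3:35754521-35754660, is centred 457 bp downstream of its start, inside the gene.
Tom1l2 intron: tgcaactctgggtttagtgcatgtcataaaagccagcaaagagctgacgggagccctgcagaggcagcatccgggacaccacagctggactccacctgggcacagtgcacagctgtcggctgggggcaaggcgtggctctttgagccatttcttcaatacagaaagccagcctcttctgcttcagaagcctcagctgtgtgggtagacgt
Ska2: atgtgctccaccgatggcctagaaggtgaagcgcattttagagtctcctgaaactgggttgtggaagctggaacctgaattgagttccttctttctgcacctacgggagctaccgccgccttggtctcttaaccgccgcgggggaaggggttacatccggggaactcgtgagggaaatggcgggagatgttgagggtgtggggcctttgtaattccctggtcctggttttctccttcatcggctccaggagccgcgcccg
Hnrnpul1: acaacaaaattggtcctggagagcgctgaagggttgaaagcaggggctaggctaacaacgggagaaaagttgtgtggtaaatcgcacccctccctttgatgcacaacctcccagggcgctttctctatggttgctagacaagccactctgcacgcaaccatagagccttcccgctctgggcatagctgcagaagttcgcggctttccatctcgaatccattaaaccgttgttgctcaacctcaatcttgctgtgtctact
Atp11b: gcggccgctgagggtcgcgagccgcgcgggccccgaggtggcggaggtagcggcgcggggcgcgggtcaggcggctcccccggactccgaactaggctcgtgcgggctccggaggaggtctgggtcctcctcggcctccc

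The footprinted peak with the signal of the Ska2 member, 3.03 in replicate 1, lies at chr1:52648241-52648380 in an intron of Nemp2. The one paired with the Hnrnpul1 member, at 2.3, lies at chr1:180366441-180366700 in an intron of Itpkb.
Nemp2 intron: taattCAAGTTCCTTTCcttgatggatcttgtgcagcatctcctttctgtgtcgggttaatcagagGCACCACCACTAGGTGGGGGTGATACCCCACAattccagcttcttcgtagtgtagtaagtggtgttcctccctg
Itpkb intron: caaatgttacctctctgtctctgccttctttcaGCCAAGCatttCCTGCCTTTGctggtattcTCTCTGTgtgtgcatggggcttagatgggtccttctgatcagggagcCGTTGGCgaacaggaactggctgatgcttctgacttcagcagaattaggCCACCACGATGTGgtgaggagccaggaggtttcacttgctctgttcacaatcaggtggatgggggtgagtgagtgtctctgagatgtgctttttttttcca
The Nemp2 peak held 2 footprints over 44 of its 140 bases and the Itpkb peak 5 footprints over 44 of its 260 bases. CpG dinucleotides numbered 5, 15, 10 and 21 in the Tom1l2, Ska2, Hnrnpul1 and Atp11b members, against 2 and 3 in the Nemp2 and Itpkb peaks. These counts are not adjusted for width or place. The last 3 members lie within 1000 bp of a start site, the 2 footprinted peaks 17608 and 36086 bp from one.

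Peaks without a footprint became rarer as the signal rose. The signal is the value the authors deposited for each peak, with no stated scale, and its median was 1.66 in replicate 1 and 1.43 in replicate 2. In the weakest of 10 equal signal classes of autosomal peaks, 34.5% in replicate 1 and 38% in replicate 2 held no footprint. The share was 7.78% and 7.18% in the sixth class, just above the median, 2.3% and 2.31% in the seventh, and 0% in both libraries in the strongest class. Members therefore sat low among the strong peaks. Their signal ran from 1.67 to 3.09 in replicate 1 with a median of 1.88, and from 1.44 to 3.73 in replicate 2 with a median of 1.63. In replicate 1, 13463 strong peaks were stronger than the strongest member, and in replicate 2, 9651 were.

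**Figure D1:**
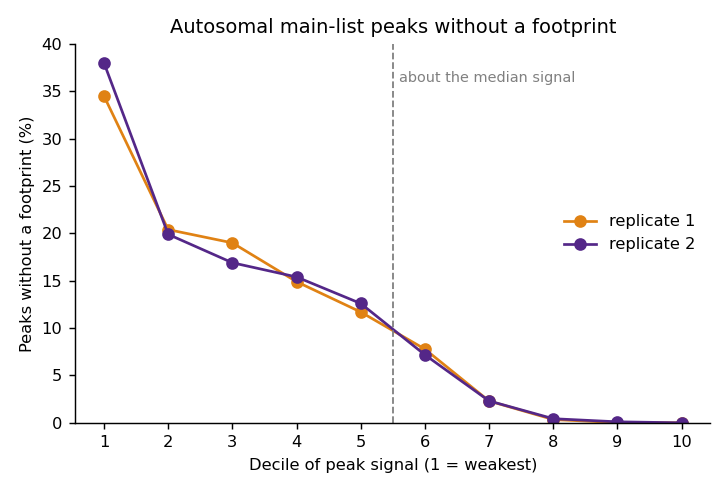
Share of autosomal main-list peaks without a called footprint (y axis, percent) by signal class of equal size (x axis, weakest to strongest), 1 line per library. Both lines fall, from 34.5% and 38% in the weakest class to 0% in the strongest.

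All members were accounted for in each step of the rule. Strong peaks without a footprint numbered 525 in replicate 1 and 491 in replicate 2, which is 2.13% and 2.02% of strong peaks. Of these, 64 and 124 overlapped no main-list peak of the other library, and 305 and 164 overlapped one that did hold a footprint, which left the 156 and 203 members. A few members, 9 and 6, also touched a further partner peak with footprints. Around the threshold in replicate 1, the peaks next to Ago2, Pabpc1 and Sh3yl1 were just inside at 1.67, and those next to Sbf1, Bbc3 and Cdkn1b just outside at 1.66. In replicate 2, the peaks next to Rad51b, Tnik and Lrrc8c were just inside at 1.44, and those next to Rnft1, Pkp4 and Mapkapk3 just outside at 1.43.

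Of the 250 loci, 100 were above the median in both libraries, 53 met the signal condition in replicate 1 only and 97 in replicate 2 only. The log2 ratio of replicate 2 to replicate 1, after subtracting the median of -0.169 over all shared peaks, had a median of 0.10 over the loci, with quartiles of -0.18 and 0.30. It lay within 0.5 of 0 at 210 loci. At 1 locus, an exon near Slc25a25 named after its value was seen, it exceeded 1 (0.787 in replicate 1 and 1.57 in replicate 2, with a called width of 32 and 460 bp). Loci strong in replicate 1 only were the richest in GC, with a median of 68.7% in replicate 1, against 64.9% for loci strong in both and 58.3% for those strong in replicate 2 only. The same order held in replicate 2, at 67.2%, 64.4% and 58.3%.

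**Figure D2:**
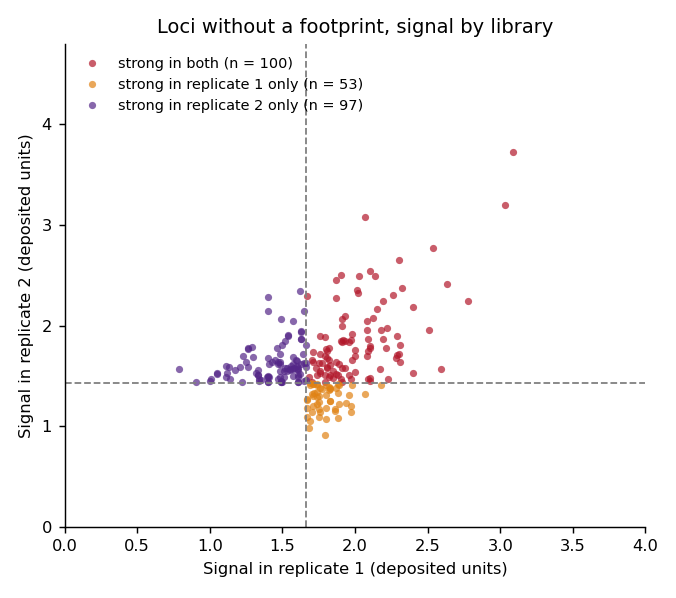
Deposited signal of each of the 250 loci in replicate 1 (x axis) and replicate 2 (y axis), coloured by the library in which it was above the median; dashed lines mark the medians of 1.66 and 1.43. Most loci lie close to both medians; the strongest, in Tom1l2, is at 3.09 and 3.73.

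The tissue label was checked against the promoters of cell type markers. All 8 T cell genes (Cd3e, Cd3d, Lck, Ptcra, Rag1, Bcl11b, Tcf7 and Cd8a) had a promoter peak in both libraries, as did 2 of 4 thymic epithelial genes and 1 of 4 B cell genes. None of 3 myeloid and none of 3 hepatocyte genes did. The main lists held 50648 and 49872 peaks, of which 49224 and 48581 were autosomal. Sequencing depth was not given in the sources used here, and the exact (Clopper-Pearson) 95% intervals below cover the counting of regions only.

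The footprintless peaks lay mostly in promoters. A promoter peak here is one centred within 1000 bp of a protein-coding start site. Among members, 139 of 156 in replicate 1 (89.1%, interval 83.1 to 93.5) and 164 of 203 in replicate 2 (80.8%, 74.7 to 86) were promoter peaks. Footprinted peaks matched 1 to 1 on signal were promoter peaks in 29.5% and 30.5% of cases. The difference was 54.9 ± 6.62 percentage points (SD, n = 2 libraries), larger than the spread between libraries, and the intervals did not overlap in either library. It was 40.5 ± 1.6 points against peaks matched on width as well and 31.9 ± 7.45 against all strong footprinted peaks. With a promoter narrowed to 500 bp it was 25.3 ± 5.07. The signal-matched promoter peaks with another peak within 1000 bp lay nearly all on chromosome 1 in replicate 1. That matched set was therefore not an even sample of the autosomes.

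By locus, 209 of the 250 were promoter loci, next to 203 different genes, and 16 lay in other exons, 18 in other introns and 7 between genes. Members' centres fell in an intron in 59.6% and 57.6% of peaks, in an exon in 32.7% and 30.5%, and outside genes in 7.69% and 11.8%. Equally strong footprinted peaks had their centre outside genes in 34% and 36.9%. Start sites on both strands lay within reach of 7.05% and 6.4% of members, against 1.92% and 1.97% of the matched peaks, and those intervals overlapped in both libraries.

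Within promoters the members sat mostly downstream of the start site. Of promoter members, 115 of 139 (82.7%, interval 75.4 to 88.6) and 133 of 164 (81.1%, 74.3 to 86.8) were centred downstream, at a median of 436 and 424 bp. The promoter peaks among equally strong footprinted peaks were downstream in 67.4% (interval 52 to 80.5, 46 peaks) and 56.5% (43.3 to 69, 62 peaks), at a median of 152 and 6 bp. The difference in the downstream share was 20.0 ± 6.58 points, and the intervals overlapped in replicate 1 but not in replicate 2. Over all strong footprinted promoter peaks the downstream share was 36.1 ± 0.405%, which made the difference 45.9 ± 1.56 points. More than 200 bp downstream lay 77.7% and 72% of promoter members, against 45.7% and 27.4% of the matched promoter peaks. The place was not particular to the members. Strong peaks without a footprint that failed the condition on the other library were downstream in 80.8% and 79.7% of their promoter peaks, and more than 200 bp downstream in 69.8% and 68.7%.

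**Figure D3:**
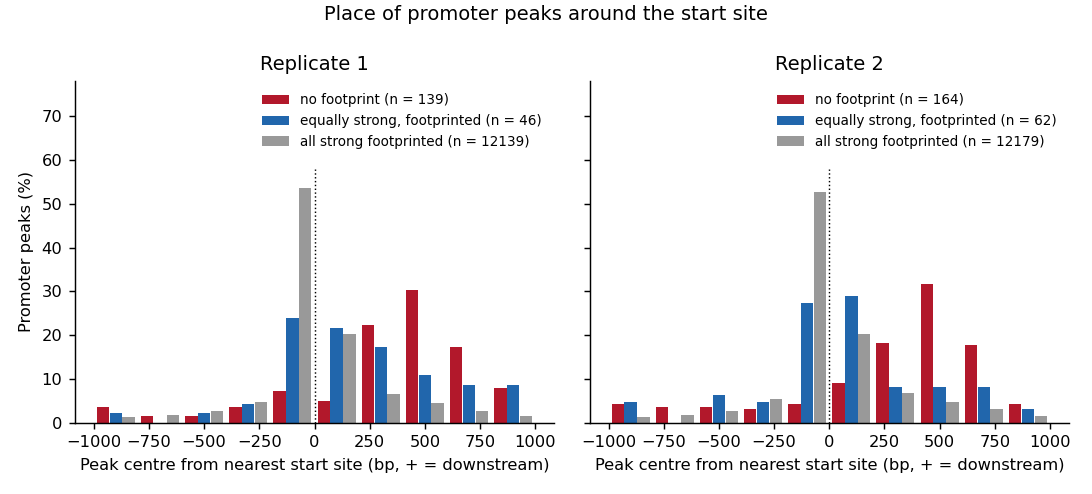
Promoter peaks by distance of their centre from the nearest start site (x axis, 200 bp classes, positive downstream) as a percentage of each set (y axis), per library: members, equally strong footprinted peaks and all strong footprinted peaks. Members are most frequent 400 to 600 bp downstream, while all strong footprinted peaks are most frequent in the 200 bp before the start.

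The share of strong peaks that were members was also read across promoters. Only strong peaks no stronger than the strongest member entered, 11208 in replicate 1 and 14680 in replicate 2, of which 1.39% and 1.38% were members. In the 200 bp before the start site 1.08% and 0.425% were members, and in the 200 bp after it 0.893% and 1.19%. The share was 6.13% and 4.27% from 200 to 400 bp downstream, 8.82% and 7.96% from 400 to 600 bp, and 8.14% and 7.06% from 600 to 800 bp. Outside promoters it was 0.225% and 0.436%. From 800 to 1000 bp downstream it was 7.1% and 3.33%. On the far upstream side, 800 to 1000 bp before the start, 5 of 80 peaks (6.25%) and 7 of 113 (6.19%) were members. Even 400 to 600 bp downstream, therefore, most peaks in this signal range were not members.

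A stronger, footprinted peak stood beside nearly every promoter member. Another main-list peak was centred within 1000 bp of 136 of 139 promoter members in replicate 1 (97.8%) and 162 of 164 in replicate 2 (98.8%). The strongest such neighbour held footprints in 132 and 157 cases and lay nearer a start site than the member in 112 and 138. It was stronger than the member in 129 (92.8%) and 156 (95.1%). Its median signal was 11.4 in both libraries, 5.78 and 6.51 times the member's, and it held a median of 6 footprints. Footprinted peaks matched on signal and on lying in a promoter had a stronger neighbour in 55.4% and 48.2%, with a median ratio of 1.58 and 1.5. They were not matched on place within the promoter. Their median centre was 142 and 15.5 bp downstream, against 436 and 424 bp in promoter members. More than 200 bp downstream lay 46% and 34.8% of them, against 77.7% and 72%. A difference in neighbours therefore cannot be told apart from one in place. Whether a member and its neighbour are parts of 1 accessible domain that was split into separate peaks was not tested. Another main-list peak lay within 20 bp of 12.2% and 14.3% of all members. The share was 6.41% and 8.87% in equally strong footprinted peaks but 21.2% and 15.8% in those matched on promoter class, so the direction turned with the comparison.

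**Figure D4:**
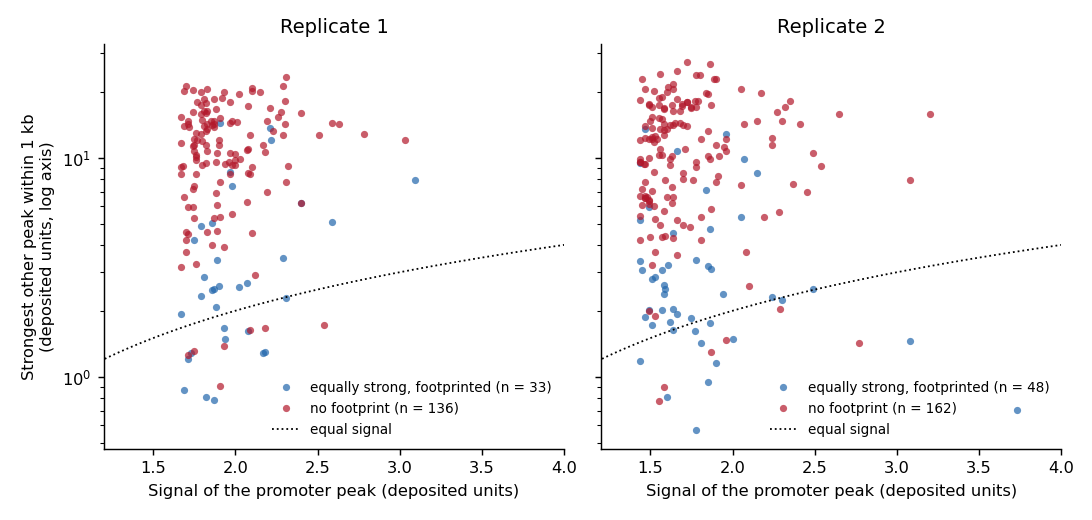
Deposited signal of promoter peaks (x axis) against that of the strongest other peak centred within 1 kb (y axis, log scale), for members and for equally strong footprinted peaks, per library; the dotted line marks equal signal. Nearly all members lie above the line, with widely spread neighbour signals whose median is 11.4, while the footprinted peaks lie on both sides of the line.

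Footprints were close by, though seldom at the peak's edge. The nearest footprint was a median of 199.5 and 194 bp from the member's edge, and 91.7% and 93.1% of members had one within 500 bp. That share was not particular to the members. It was 91.1% and 91% in strong peaks without a footprint that were not members. In all strong footprinted peaks, counting only footprints outside the peak, it was 66.9% and 75.9%. Within 20 bp of the edge lay a footprint at 2 members of replicate 1, next to Mcm7 and Cebpg, and at 12 of replicate 2. These were 1.28% and 5.91% of members, against 16.7% and 21.7% of equally strong footprinted peaks. Among strong peaks without a footprint that were not members, 11.1% and 11.8% had one there. Counting a footprint within 20 bp as held would leave 236 of the 250 loci.

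The members were wide. Their median width was 314 bp in replicate 1, from 60 to 1020 bp, and 300 bp in replicate 2, from 60 to 982 bp. Equally strong footprinted peaks had medians of 212 and 220 bp and held a median of 3 footprints. The difference in median width was 91 ± 15.6 bp, larger than the spread between libraries, and 57.2 ± 3.89 bp against peaks matched on signal and promoter class. Wider than 300 bp were 50.6% and 41.9% of members, against 15.4% and 18.2% of the matched peaks. Narrower than 100 bp were 3.85% and 3.94% of members, against 0.641% and 3.94% of the matched peaks. In all strong footprinted peaks that share was 0.723% and 1.06%. Of strong peaks no stronger than the strongest member, 3.74% and 3.06% of those up to 100 bp were members. From 100 to 200 bp 0.226% and 0.55% were, and above 400 bp 4.48% and 2.52%.

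Members were rich in GC and CpG. Median GC content was 66.9% and 61.9% in members, against 54.5% in the equally strong footprinted peaks of both libraries, a difference of 9.88 ± 3.55 points. The difference was -0.326 ± 1.04 points, within the spread between libraries, once the footprinted peaks were also matched on lying in a promoter. It was 3.28 ± 3.33 points with peaks matched on signal and width. Median CpG observed over expected, the density of CpG relative to base composition, was 0.799 and 0.731 in members and 0.327 and 0.346 in the footprinted peaks. CpG-rich by a GC content over 50% and a ratio over 0.6 were 82.1% and 64.5% of members, against 26.3% and 27.1%. Over promoter and other peaks together, CpG content stayed higher in members than in peaks matched on signal and promoter class, unlike GC content. The median ratio in those was 0.746 and 0.648, a difference of 0.0679 ± 0.0217, and 66% and 56.2% of them were CpG-rich, a difference of 12.2 ± 5.41 points. The intervals of the CpG-rich share did not overlap in replicate 1 (75.1 to 87.7 and 58 to 73.4) and overlapped in replicate 2 (57.5 to 71.1 and 49 to 63.1). Within promoters the median ratio was 0.816 and 0.747 in members and 0.787 and 0.728 in the class-matched peaks. All strong footprinted promoter peaks were above the members, at 0.828 and 0.815. Outside promoters it was 0.606 and 0.483 in members and 0.292 and 0.246 in the class-matched peaks. That matching set promoters apart from all other places, but not exons from introns or intergenic sequence. Outside promoters, 6 and 14 members were exon peaks, against 1 class-matched peak in each library. The members outside promoters, 17 and 39, were less GC-rich than promoter members, at medians of 59.7% and 57.5% against 67.2% and 63.4%.

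Between 200 and 800 bp downstream of a start site, GC content did not order the share of members in the same way in both libraries. For GC of 50 to 60%, 60 to 70% and over 70%, 5.77%, 7.72% and 8.85% of such peaks were members in replicate 1, and 8.07%, 5.93% and 5.46% in replicate 2. Across all strong peaks in the same signal range the share rose with GC in both, from 0.562% to 4.23% in replicate 1 and from 1.03% to 2.34% in replicate 2 between the 50 to 60% class and the class over 70%.

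**Figure D5:**
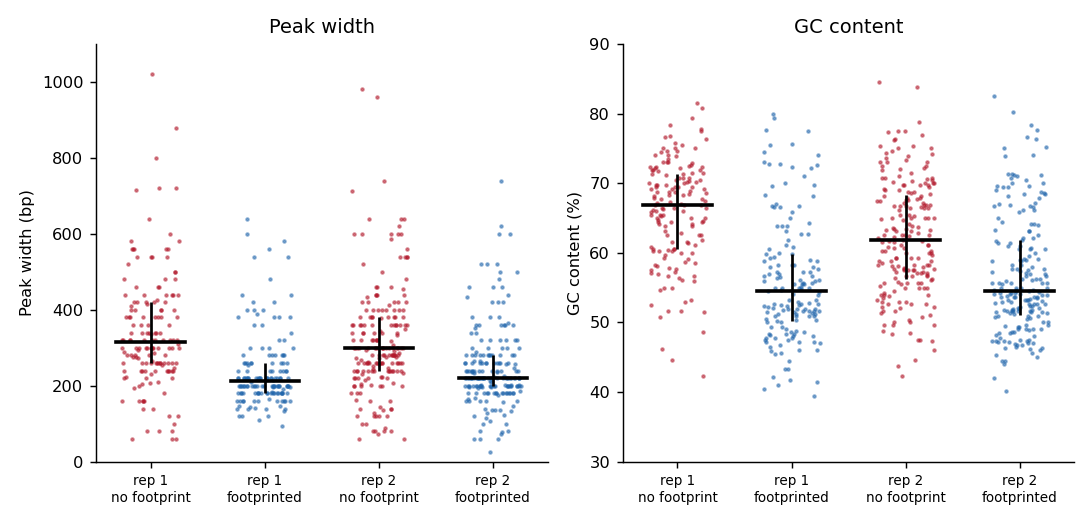
Width (left, bp) and GC content (right, percent) of each member and each equally strong footprinted peak, per library; wide bars are medians and vertical lines run between the quartiles. Members are wider and richer in GC in both libraries, with overlapping ranges.

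Few members held sequence that short reads cannot place uniquely. Every 32-base word of the peak occurred once in the genome in 91% and 91.1% of members and in 92.9% and 91.1% of matched peaks. The mean unique share differed by 0.493 ± 0.629 points, within the spread between libraries. Only 1 member in each library had under 50% unique words, the peak next to Rplp0 in replicate 1 (49.4%) and the one nearest Rabepk in replicate 2 (20.7%). Only the Yy1 peak in replicate 2 was over 50% repeat-masked, at 62.5%. No member held a 32-base word of the mitochondrial genome, 0 of 156 and 0 of 203, which allows a share of up to 2.34% and 1.8% by the exact interval. These peaks, all named after their values were seen, were not among the strongest.

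Members and footprinted peaks were alike in being called accessible base by base. The authors deposited a second list of base runs with a q-value, and the lowest q-value in a member had a median of 2.27e-14 in replicate 1 and 8.39e-12 in replicate 2. In the equally strong footprinted peaks the medians were 2.86e-13 and 1.31e-11. Every base was at a q-value of 0.001 or lower in 96.8% and 92.1% of members, and in 97.4% and 91.6% of the matched peaks. The lowest q-value was at most 0.000648 and 0.000891 over all strong footprinted peaks. The peak lists may thus already be cut near 0.001, and these values are no separate evidence for members.

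Binding-site letters were searched in the central 150 bp of each peak, on both strands, for 15 motifs, each searched on its own, so that matches may overlap. A match is only a match of letters. Patterns of 10 or more letters are given by name and the others by their letters. The CTCF pattern is bound by a protein that organises chromatin loops and typically leaves a clear footprint. It matched 3 of 156 members (1.92%, interval 0.398 to 5.52) and 3 of 203 (1.48%), against 21.8% and 11.3% of equally strong footprinted peaks. Peaks matched on signal and promoter class had it in 7.05% and 8.37%, and all autosomal peaks in 15.1% and 10.2%. In peaks matched on signal and width it was 5.77% (interval 2.67 to 10.7) and 3.94% (1.72 to 7.62). Those intervals overlapped the members' in both libraries. The promoter peaks among the equally strong footprinted peaks had it in 2.17% (1 of 46) and 4.84% (3 of 62). How far the gap follows place or width was not tested. The members with a match were those next to Eif3a and Ube2s in both libraries, Tprn in replicate 1 and Prkd2 in replicate 2, named after their values were seen.

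RUNX factors, which direct T cell development, were searched as TGTGGTT, which matched 1 member (0.641%) and 3 members (1.48%), against 7.05% and 9.85% of equally strong footprinted peaks. In class-matched peaks it was 3.21% and 3.94%, and in all autosomal peaks 5.09% and 5.15%. The match in the peak next to Tnik was found in both libraries, and those next to Ubb and Glrx3 in replicate 2. SP and KLF factors, which bind GC-rich promoters, were searched as GGGCGGG. That motif matched 16% and 11.3% of members and 14.1% and 15.3% of equally strong footprinted peaks, but 30.8% and 22.7% of those matched on promoter class.

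The ETS motif CCGGAAG matched 5.77% (interval 2.67 to 10.7) and 6.9% (3.82 to 11.3) of members. All autosomal peaks had it in 5.74% and 5.92%, inside both intervals, and all strong footprinted peaks in 9.12% and 9.68%. Of the 15 motifs it alone was higher in members than in all autosomal peaks in both libraries, by a margin within counting error. The E-box CAGGTG, bound by E proteins that guide lymphocyte development, matched 16.7% of members in both libraries and 19.4% and 20.0% of all peaks. The E-box CAGCTG matched 8.33% and 10.8%, against 13.2% and 14.2%. In class-matched peaks CAGGTG matched 13.5% and 18.7% and CAGCTG 6.41% and 15.3%. Against those, members were higher in replicate 1 and lower in replicate 2 for both E-boxes. AP-1, searched as TGANTCA, matched 0.641% and 0.985%, against 3.52% and 3.68%. In members the other 8 motifs matched between 0% and 2.46% of windows. Among them, the CRE letters TGACGTCA matched no member, against 1.13% and 1.18% of all peaks. The TATA box, TATAAA, matched 0.641% and 0% of members, against 2.74% and 2.51% of all peaks. Class-matched peaks had it in the same shares as members, 0.641% and 0%. TCF7 and LEF1, factors of the early T cell programme, were searched as CTTTGAT, with 1.28% and 2.46% of members and 1.84% and 2.03% of all peaks. NFY, a promoter factor, was searched as CCAATCA and matched 1.92% and 1.97%, against 3.3% and 3.41% of all peaks. In class-matched peaks CCAATCA matched 1.28% and 2.46%, and CTTTGAT 0% and 1.48%. The rest were NRF1 and IRF, the YY1 letters AAGATGGC, and the GATA letters AGATAAG. Of the 15, 11 were lower in members than in all autosomal peaks in both libraries, 8 were lower than in equally strong footprinted peaks and 6 lower than in class-matched peaks. The members' rule used the absence of footprints, and these letters are a description of what it left.

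The 10 strongest loci, by their mean signal rank within each library, included 7 centred downstream of a start site within a promoter. The strongest was the peak in the intron of Tom1l2, a gene for a protein of endosomal sorting, with a signal of 3.09 in replicate 1 and 3.73 in replicate 2. It differed from most members in standing alone. No other main-list peak was centred within 1000 bp, and its nearest footprints were 3346 and 1729 bp away. Its GC content was 56.7%, its CpG observed over expected 0.297, and its lowest q-value 3.27e-07 in replicate 1 and 7.24e-25 in replicate 2.

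Ska2, which encodes part of the complex that holds chromosomes to spindle microtubules, had the second locus, at 3.03 and 3.2. Its neighbour, centred 223 and 213 bp upstream of the start site, reached 12.1 with 13 footprints and 15.8 with 8. Mcm7, a subunit of the replicative DNA helicase, had a locus of 2.07 and 3.08 that was centred 91 bp downstream of its start. A footprint lay only 4 and 6 bp beyond its edge, and the neighbouring peak reached 6.31 and 7.96 with 7 and 5 footprints. The neighbours exceeded the members severalfold at both genes.

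Fbxw7, a ubiquitin ligase component that marks cyclin E, MYC and NOTCH proteins for degradation, was the exception among the strongest promoter loci. Its locus, 403 bp downstream, had 2.54 and 2.77, above the neighbouring peak on the other side of the start, which had 1.73 with 1 footprint and 1.42 with none. Ppp2ca, the catalytic subunit of protein phosphatase 2A, showed the usual arrangement. Its locus 520 bp downstream had 2.63 and 2.41, beside a peak of 14.2 and 14.3 at the start site with 7 and 9 footprints. Slc25a3, the mitochondrial phosphate carrier, had 2.78 and 2.24 at 324 bp downstream, beside 12.9 and 11.4.

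Hnrnpul1, an RNA-binding nuclear protein, had the only promoter locus upstream of its start among the 10, at 2.3 and 2.65, with a neighbour of 14.3 and 15.8 nearer the start. Sun2, a nuclear envelope protein that links the nucleus to the cytoskeleton, had 2.32 and 2.37 at 413 bp downstream, beside 9.15 and 7.59. Atp11b, a phospholipid flippase, had 2.4 and 2.19 at 457 bp downstream, beside 6.2 and 5.38. Its peak of 140 bp in replicate 1 had the highest GC content of the 10 loci, 79.3%. Rnf166, a ubiquitin ligase, held the other locus outside a promoter, in an intron 5174 bp downstream of its start, with 2.14 and 2.49 and a neighbour of 7.52 and 7.66.

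Of the 5 widest loci, Mex3b was above the median in both libraries and the others in replicate 2 only. The Mex3b locus, in an exon of this RNA-binding protein gene 1538 bp downstream of its start, spanned 1020 and 560 bp at signals of 1.96 and 1.84. The Anp32a locus, centred 95 bp downstream, was called 307 bp wide in replicate 1 and 982 bp in replicate 2, at 1.4 and 1.5. Ing1, a chromatin-reading growth regulator, had 620 and 640 bp in an intron at 1.57 in both libraries. Pim1, a kinase gene that cytokines switch on in lymphocytes, had 600 and 640 bp in an exon at 1.47 and 1.62. Mark2, a polarity kinase, had 540 and 640 bp at 1.55 and 1.57.

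T cell genes contributed no locus. Of 40 genes in a T cell list, none had a footprintless strong peak in the gene or within 10 kb. A promoter peak was present in both libraries at 35 of them, and 0 of 35 with a promoter locus allows a share of up to 10% by the exact interval. Among all 10562 autosomal genes with a promoter peak in both libraries, 203 were nearest to a promoter locus (1.92%), so at this number of genes a lack in the T cell list was not detectable.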

How the data were processed

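DNase-seq of mouse thymus was used, as 2 libraries in 1 group. The authors deposited, per library, 2 peak lists with 1 signal value per peak and no stated scale, footprints, whose value column holds the constant 0.01 so that only their positions were used, and accessible base runs, each with its q-value. Per the file headers and labels the files are on mm10 and were made per library; for aligner, peak caller, footprint caller, thresholds and depth, the sources used here name none. The shorter peak list was the main list.

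Overlap meant at least 1 bp. Sequence came from GRCm38, which has mm10's chromosome lengths, and start sites from 21924 protein-coding genes in the basic set of GENCODE vM21. Each member was paired, strongest first, with the unused footprinted peak nearest in log2 signal. That peak had to be autosomal, above the median, and to overlap a footprinted peak of the other library. Ties in signal went to the first peak in order of chromosome name and position, which favoured chromosome 1. GC content, CpG content and uniqueness of 32-base words were computed from the assembly, and the steps were checked on simulated data. Values were summarised per library with the mean and SD over the 2 libraries. Alternatives changed the signal, partner, footprint, list, matching and promoter choices; 3 were added after the data were seen (every partner without a footprint, matching on promoter class, and the downstream share). The named loci were the 10 strongest by mean rank in signal, the 5 widest, any near a gene of the T cell list, and the 3 on either side of each threshold. Printed sequences were the members highest in mean rank over both libraries, of up to 300 bp and outside untranslated parts of transcripts. The last condition was added after the data were seen. Paired peaks were printed only for the first 3 of these members, and only where they met the same limits. The members, lists and motifs were chosen with earlier results of these data known. Tools were Python 3.11.15 with numpy 2.4.6, pandas 2.3.3, scipy 1.17.1 and numba 0.67.0, bedtools 2.31.1 and samtools 1.23.1.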

Additional observations from a re-analysis of the deposited data

How the results depend on the processing

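Only peaks, not reads, were used, and 2 libraries of 1 group allow no test, so stability can only be read from the spread between them. Membership in each library rested on the other too, and 100 of the 250 loci were strong in both. That spread is therefore not one between independent sets of peaks. A signal above the upper quartile left 3 loci, a share of 0.0123% of strong peaks against 0.733% as reported. All came from replicate 2, because the strongest member of replicate 1 was at percentile 72.8 of its list. These were too few regions for the other comparisons. A partner peak above its own median gave 100 loci and 0.422%, and the longer peak lists gave 1023 loci and 2.4%. The difference in promoter share, 54.9 points as reported, was 40.5 with peaks matched on width, 31.9 against all strong footprinted peaks and 25.3 with promoters of 500 bp. The difference in median width, 91 bp, was -0.75 bp with peaks matched on width, which this matching sets, and 57.2 bp with peaks matched on promoter class. The difference in GC content, 9.88 points, was 3.28, 4.38 and -0.326 points with peaks matched on width, all strong footprinted peaks and peaks matched on promoter class. The downstream share differed by 20.0 points, or by 45.9 against all strong footprinted peaks. Apart from what matching sets, the cause was not tested. Taken per library, with membership still resting on both, the share was 0.632% and 0.834%. The member peaks, not merged into loci, were 156 and 203. The promoter difference ranged from 50.2 to 59.6 points, the width difference from 80.0 to 102 bp and the GC difference from 7.38 to 12.4 points. The unique share difference ranged from 0.0484 to 0.937 points and the downstream difference from 15.3 to 24.6 points.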

Other observations

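Peaks without a footprint in both libraries were also counted in the weaker part of the main lists, at or below the median signal, which the rule leaves out. They numbered 1401 in replicate 1 and 1343 in replicate 2. Promoter peaks made up 75.7% and 76.2% of them, against 19.7% and 18.3% of the weaker peaks with a footprint in both libraries. Of the promoter peaks among them, 77% and 77.6% were centred downstream of the start site, against 52.9% and 52.4%. Letters of the CTCF motif were found in the central 150 bp of 1.28% and 1.41%, against 14.9% and 22.9%. Weaker footprintless peaks thus lay in promoters, and downstream within them, more often than weaker footprinted peaks in both libraries, with no test possible.

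Chromosome X, outside the rule, held 524 strong peaks in replicate 1 and 534 in replicate 2. Among these, 1 in replicate 1 and 2 in replicate 2 had no footprint in both libraries.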
